A study of Mus musculus with 22 samples.

Results

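RNA of MC38 tumor samples from wild-type (WT) mice was compared with RNA of WT bone marrow myeloid cells kept in hypoxia. MC38 is a mouse colon carcinoma line that grows in C57BL/6 mice. The comparison holds 7 of the 22 libraries in the series, chosen by their labels: 3 WT tumor samples labelled day 7 and 4 WT hypoxia cultures labelled 24 hours. Both groups are given the C57BL/6N background. The tumor samples are labelled as tumor tissue and carry no oxygen label, whereas the cultures are labelled as bone marrow myeloid cells. For the normoxia cultures, the series states that marrow progenitors grew with GM-CSF and IL-6 for 4 days and that the 4 replicates were independent; whether the hypoxia cultures began in the same way is not given. The names of the deposited tables, the tumor table included, speak of myeloid-derived suppressor cells (MDSC), but a purification of cells from the tumors is not described. The series also holds mice with a knockout (KO) of VISTA, an immune checkpoint protein encoded by Vsir. Their 3 tumor samples and 4 hypoxia cultures were used only to repeat the comparison, and the 4 WT normoxia cultures were set beside it for genes that respond to oxygen. No promoter, Cre line or other detail of the KO allele is given.

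Source, time and count table differ together between the groups. The tumor samples stand in one table and the hypoxia cultures in another, so a difference between tumor and culture, between day 7 and 24 hours, or between the handling of the tables cannot be told apart.

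MDSC are immature neutrophils and monocytes that collect in tumors and hold back T cells, among other means by using up arginine and by making nitric oxide. Bone marrow progenitors kept with GM-CSF and IL-6 give cells of both lineages and are a common model of them. Monocytes that enter a tumor mature into macrophages there, meet interferon from lymphocytes and show antigen on MHC molecules. Cells short of oxygen hold on to HIF-1α, a transcription factor that switches on glucose uptake, glycolysis and blood vessel growth.

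The WT tumor libraries held 27452024 to 31716200 counts and the WT hypoxia libraries 31060342 to 31385825. The tables share 22700 genes, and 15518 of them had enough counts to be tested with edgeR's quasi-likelihood test. At an adjusted p under 0.05, 12665 genes differed (81.6%), 6300 of them higher in the tumor samples (40.6%) and 6365 lower (41%). With so much of the transcriptome different, a gene is called here, and said to have risen or fallen, only where edgeR's test against a 2-fold change passed at the same threshold. By this rule 6548 genes were called (42.2% of those tested). Of all tested genes 2815 rose (18.1%) and 3733 fell (24.1%), and the median log2 fold change over all genes was -0.000616. These shares are the background for each count of list members in this comparison. The lists were chosen with earlier results of these data known, so a count beside the background is descriptive and no independent test. A gene near 0 in 1 group could have enough counts to be tested only through the other group, so counts over such genes are descriptive. Levels are CPM (counts relative to the scaled library size), and log2 fold changes are tumor over hypoxia. The CPM of the groups did not overlap for 80.1% of genes, with the tumor samples higher for 39.9% and lower for 40.2%. Log2 CPM correlated at 0.988 to 0.994 within a group and at 0.771 to 0.782 between the groups.

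Transcripts of the mitochondrial genome took 0.112% to 0.212% of counts in the tumor libraries, against 4.06% to 5.01% in the hypoxia libraries. Transcripts of cytosolic ribosomal proteins took 0.666% to 0.822% in the tumor libraries, against 3.17% to 3.58% in the hypoxia libraries. Protein-coding genes took 97.3% to 97.7% in the tumor libraries, against 92.2% to 92.9% in the hypoxia libraries. Shares of this kind can move with RNA quality or with the making of the library, and their part in the results that follow was not tested.

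Vsir lies on chromosome 10, 60346851 to 60372684 (GRCm38, like all positions given here). It had 444, 492 and 494 CPM in the WT tumor samples, against 525, 597, 507 and 522 CPM in the WT hypoxia cultures, and the groups did not overlap, but it was not called (log2 fold change -0.17 ± 0.09 SE, edgeR adjusted p = 0.0756). Its adjusted p depended on the setting. In edgeR it was 0.00786 when scaled by library size alone (log2 fold change -0.28), 0.0149 with a filter at a mean log2 CPM of 3, 0.0487 with DESeq2 size factors and 0.0494 with no filter on low counts, and in DESeq2 it was 0.0341. With single libraries left out it was 0.0561 to 0.296 in edgeR. In the KO libraries Vsir had 119 ± 6.98 CPM in tumor samples and 146 ± 23.1 CPM in hypoxia cultures (SD, n = 3 and 4), below each WT library of the same source. Genes that mark leukocytes were abundant in the tumor samples. Ptprc, which encodes the leukocyte surface protein CD45, had 1067, 1010.1 and 1062 CPM in the WT tumor samples, against 426, 488, 402 and 423 CPM in the WT hypoxia cultures, and it rose (log2 fold change 1.27 ± 0.09 SE, edgeR adjusted p = 4.68e-09). Of 12 pan-leukocyte and myeloid genes 3 rose, 0 fell, against 18.1% and 24.1% of all genes tested, and the summed level was 23460 to 28200 CPM in the tumor samples, against 14150 to 16940 CPM in the hypoxia cultures. Itgam, which encodes CD11b, had 356 to 368 CPM in the tumor samples, against 443 to 488 CPM in the hypoxia cultures and was not called (log2 fold change -0.34 ± 0.08 SE). Most genes of epithelial and carcinoma cells were at or near 0 in the tumor samples. Epcam, an adhesion molecule of epithelia, had 0.149 to 0.707 CPM in the tumor samples, against 0.278 to 0.501 CPM in the hypoxia cultures. Cldn4 and Cdx2, a claudin and an intestinal transcription factor, were at 0 in all 3 tumor samples. The summed level of the 16 epithelial genes was 22.3 to 42.4 CPM in the tumor samples, against 266 to 300.1 CPM in the hypoxia cultures, and most of the culture sum was Cdh1, the gene of E-cadherin. How much MC38 cells express of these markers was not measured here, so the markers bear on the sample only as far as these values go.

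Other cells left a varied trace. The summed level of 18 T and NK cell genes was 56.5 to 116 CPM in the tumor samples, against 11.4 to 15.3 CPM in the hypoxia cultures. Of 16 tested members 15 rose, against 18.1% of all genes tested. Members near 0 in culture could pass the filter on low counts only through the tumor samples, so this count is no test of the list. Trac, which encodes the T cell receptor alpha chain, had 5.42, 6.36 and 13.2 CPM in the tumor samples, against 0.095, 0.188, 0.123 and 0.216 CPM in the hypoxia cultures. Replicate 3 of the tumor samples was the highest for Trac and for the T cell list as a whole. Fibroblast genes summed to 468 to 573 CPM in the tumor samples, against 105 to 157 CPM in the hypoxia cultures. Col3a1, a collagen of connective tissue, had 317 to 376 CPM in the tumor samples, against 0.125 to 0.285 CPM in the hypoxia cultures, and Thy1, on the same list, had 0.303 to 0.746 CPM in the tumor samples, against 75.6 to 117 CPM in the hypoxia cultures. Endothelial genes summed to 176 to 237 CPM in the tumor samples, against 164 to 191 CPM in the hypoxia cultures. Of their 9 tested members 4 rose and 4 fell, against 18.1% and 24.1% of all genes tested. Genes of B and plasma cells summed to 55 to 62.5 CPM in the tumor samples, against 69 to 84.7 CPM in the hypoxia cultures. In bulk RNA, fewer cells of a type and less RNA of that type per cell cannot be told apart, and this holds for all cell type genes given here.

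**Figure D1:**
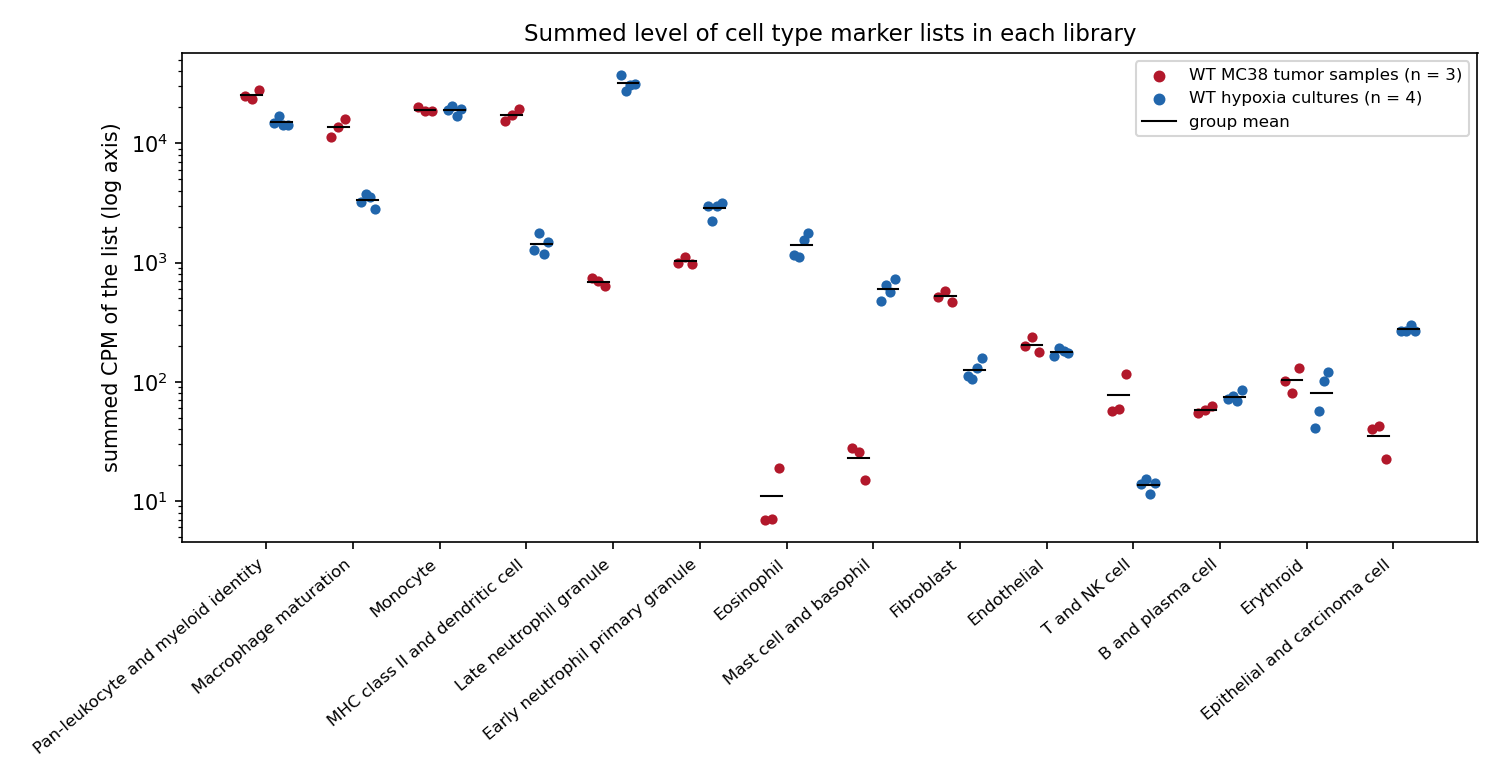
Summed CPM of 14 cell type marker lists (vertical log axis) in each WT MC38 tumor sample (red, left of each pair, n = 3) and each WT hypoxia culture (blue, right, n = 4), with group means as black bars. Macrophage and MHC class II lists stand higher in the tumor samples, whereas neutrophil, eosinophil, mast cell and epithelial lists stand lower, and the monocyte sums overlap (18580 to 20030 CPM in tumor samples, against 17010 to 20450 CPM in hypoxia cultures).

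Interferon-stimulated genes were the list with the highest median. All 35 members passed the filter on low counts and rose, against 18.1% of all genes tested, and their median log2 fold change was 6.67. Interferons bind surface receptors and act through STAT and IRF factors, which recognise the interferon-stimulated response element (ISRE) in promoters. Promoters of 4 genes are shown because they carry that element and belong to genes that rose; Isg15 and Rsad2 among them were chosen after their values were seen. The sequences are from RefSeq (GRCm38.p6), run from 250 bases before to 50 bases after the annotated start, and capitals mark the letters GAAA, any 2 bases and GAAA again, or the same read from the other strand (TTTC, any 2 bases, TTTC).
Ifit3 (chr19:34583279-34583578, plus strand): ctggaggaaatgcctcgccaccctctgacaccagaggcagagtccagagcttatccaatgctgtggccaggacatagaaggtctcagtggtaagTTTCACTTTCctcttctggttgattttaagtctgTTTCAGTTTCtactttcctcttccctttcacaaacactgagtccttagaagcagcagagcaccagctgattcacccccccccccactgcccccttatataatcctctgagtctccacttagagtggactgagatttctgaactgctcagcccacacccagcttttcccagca
Isg15 (chr4:156200769-156201068, minus strand): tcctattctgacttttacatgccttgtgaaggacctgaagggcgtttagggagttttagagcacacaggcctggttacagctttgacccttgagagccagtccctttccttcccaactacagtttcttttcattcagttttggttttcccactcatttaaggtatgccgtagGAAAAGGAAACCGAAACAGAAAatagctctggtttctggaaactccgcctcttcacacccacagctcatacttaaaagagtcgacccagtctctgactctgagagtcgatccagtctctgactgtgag
Cxcl10 (chr5:92348840-92349139, minus strand): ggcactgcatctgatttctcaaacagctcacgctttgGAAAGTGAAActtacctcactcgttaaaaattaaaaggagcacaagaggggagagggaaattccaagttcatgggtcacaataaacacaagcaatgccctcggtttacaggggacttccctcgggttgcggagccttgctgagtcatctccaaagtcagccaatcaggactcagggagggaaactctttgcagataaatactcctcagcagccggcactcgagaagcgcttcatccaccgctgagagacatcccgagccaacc
Rsad2 (chr12:26456403-26456702, minus strand): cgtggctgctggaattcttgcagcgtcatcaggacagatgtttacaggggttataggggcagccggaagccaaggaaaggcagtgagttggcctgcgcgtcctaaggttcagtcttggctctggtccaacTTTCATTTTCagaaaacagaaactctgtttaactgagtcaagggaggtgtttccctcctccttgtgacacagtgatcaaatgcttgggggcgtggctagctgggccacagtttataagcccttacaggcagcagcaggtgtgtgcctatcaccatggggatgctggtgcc
The window of Ifit3 holds 2 matches, the first starting at position -156. That of Isg15 holds 3 overlapping matches from position -78, that of Cxcl10 has 1 at -213 and that of Rsad2 has 1 at -120. Over the 27 list members matched by symbol, 17 of 32 windows held the motif (53.1%), against 3.44% of all 32851 windows. A match describes letters in a window and does not show that a factor bound there.

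Ifit3 and Cxcl10 were nearly silent in culture. Ifit3, which encodes an antiviral protein that acts with other IFIT members, had 1025, 1118 and 647 CPM in the WT tumor samples, against 0.317, 0.125, 0.247 and 0.123 CPM in the WT hypoxia cultures. It was lowest in tumor replicate 3 and still far above each culture (log2 fold change 12.14 ± 0.27 SE, edgeR adjusted p = 4.55e-13). Cxcl10, a chemokine that draws activated T cells, had 804, 783 and 721 CPM in the tumor samples, against 5.07, 2.5, 4.93 and 4.94 CPM in the hypoxia cultures (log2 fold change 7.46 ± 0.19 SE, edgeR adjusted p = 4.76e-13). Its near relative Cxcl9 had 144, 151 and 259 CPM in the tumor samples, against 0, 0.188, 0.0308 and 0.0308 CPM in the hypoxia cultures, so 1 culture had no count of it. Irf1, an interferon-responsive transcription factor, had 590.3 to 651 CPM in the tumor samples, against 17.2 to 19.8 CPM in the hypoxia cultures (log2 fold change 5.07 ± 0.09 SE, edgeR adjusted p = 1.00e-14). Igtp and Gbp5, which encode GTPases of interferon-inducible families, had log2 fold changes of 6.56 ± 0.11 and 6.67 ± 0.12 (SE). Iigp1, a further GTPase of this kind, had 482 to 573 CPM in the tumor samples. In the 4 cultures together it had 2 counts, so its ratio of 34857 (9649 to 287830) is given with its 95% counting interval. Rtp4 rose by 9.55 ± 0.12, Ifit1 by 9.06 ± 0.22 and Ifit2 by 7.34 ± 0.20 on the log2 scale (SE). The summed T and NK cell genes, given above, were also higher in the tumor samples, and their part in these differences was not tested.

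The 12 largest rises under the naming rule include other members of interferon-inducible families. Ifi208, Ifi213, Ifi205 and Ifi206 belong to the Ifi200 family, whose products include sensors of DNA in the cytosol. Ifi205 had 836, 825 and 665 CPM in the tumor samples, against 0.38, 0.438, 0.401 and 0.185 CPM in the hypoxia cultures, and Ifi206 had 298 to 445 CPM in the tumor samples, against 0.123 to 0.317 CPM in the hypoxia cultures. Ifi208 had 138 to 216 CPM in the tumor samples, against 0 to 0.123 CPM in the hypoxia cultures. Ifi213 had 259 to 339 CPM in the tumor samples, against 0 to 0.123 CPM in the hypoxia cultures. Ifit3b had 131 to 228 CPM in the tumor samples, against 0 to 0.158 CPM in the hypoxia cultures, and Phf11a had 86.3 to 122 CPM in the tumor samples, with a ratio over the cultures of 4661 (1594 to 22604) by counting. The Ifi200 genes lie together and resemble each other, as do Ifit3 and Ifit3b, so the split of reads within each family is uncertain. C4b, a complement component, had 199.97 to 259 CPM in the tumor samples, against 0.0616 to 0.25 CPM in the hypoxia cultures. Ms4a4c, a membrane protein of monocytes, had 1309, 1175 and 1051 CPM in the tumor samples, against 0.538, 0.532, 0.339 and 0.463 CPM in the hypoxia cultures. Each of these genes was below 1 CPM in every culture, and the lowest tumor value among them was 86.3 CPM.

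MHC class I and peptide loading genes rose together: 17 of 19 rose and 0 fell, against 18.1% and 24.1% of all genes tested. They had a median of 3.82 and a summed level of 26030 to 29650 CPM in the tumor samples, against 3863 to 4206 CPM in the hypoxia cultures. B2m, the light chain shared by class I molecules, had 4104, 4318 and 4167 CPM in the WT tumor samples, against 747, 743, 587 and 658 CPM in the WT hypoxia cultures (log2 fold change 2.62 ± 0.10 SE, edgeR adjusted p = 9.85e-12). H2-K1, a classical heavy chain, had 3173 to 3711 CPM in the tumor samples, against 248 to 282 CPM in the hypoxia cultures (3.67 ± 0.09 SE). H2-T23 and H2-Q6, heavy chains of nonclassical type, rose by 4.65 ± 0.11 and 5.11 ± 0.12, and H2-M3 by 4.99 ± 0.13 (SE). The class I heavy chain genes are close relatives, so how reads were shared among them is uncertain. Psmb9 and Psmb10, subunits of the immunoproteasome that cuts peptides for class I, rose by 4.13 ± 0.09 and 4.00 ± 0.09 (SE).

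Of 23 MHC class II and dendritic cell genes 13 rose and 6 fell, against 18.1% and 24.1% of all genes tested, so the share that fell was near that of all genes. The list summed to 15350 to 19290 CPM in the tumor samples, against 1182 to 1759 CPM in the hypoxia cultures. H2-Ab1, the beta chain of a class II molecule, had 3087, 3454 and 4111 CPM in the WT tumor samples, against 133, 174, 119 and 144 CPM in the WT hypoxia cultures (log2 fold change 4.64 ± 0.14 SE, edgeR adjusted p = 9.58e-13). Its partner H2-Aa rose by 3.54 ± 0.17 and H2-DMb1, which helps to load class II with peptide, by 3.39 ± 0.11 (SE). Cd74, the invariant chain of class II, had 7442 to 9185 CPM in the tumor samples, against 461 to 748 CPM in the hypoxia cultures (log2 fold change 3.85 ± 0.16 SE, edgeR adjusted p = 1.83e-11). Cd40, through which T cells activate antigen-presenting cells, had 147, 131 and 146 CPM in the tumor samples, against 0.317, 0.501, 0.431 and 0.617 CPM in the hypoxia cultures (log2 fold change 8.23 ± 0.14 SE, edgeR adjusted p = 6.47e-15). The interferon regulatory factors on the list went opposite ways. Irf8, needed for monocytes and for some dendritic cells, had 618 to 698 CPM in the tumor samples, against 54.4 to 66.1 CPM in the hypoxia cultures (3.52 ± 0.09 SE). Irf4, which acts in other dendritic cells and in alternatively activated macrophages, had 1.49 to 2.17 CPM in the tumor samples, against 58.3 to 74.2 CPM in the hypoxia cultures (-5.13 ± 0.15 SE).

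Macrophage genes were higher in the tumor samples. Of 25 tested members of the maturation list 17 rose and 3 fell, against 18.1% and 24.1% of all genes tested. The median was 2.32, and the sum was 11250 to 16070 CPM in the tumor samples, against 2819 to 3784 CPM in the hypoxia cultures. C1qa and C1qb, which encode chains of complement C1q made by mature macrophages, were low in culture. C1qa had 594, 729 and 852 CPM in the WT tumor samples, against 4.97, 6.63, 4.07 and 5.09 CPM in the WT hypoxia cultures (log2 fold change 7.13 ± 0.17 SE, edgeR adjusted p = 9.55e-14), and C1qb had 1640 to 2128 CPM in the tumor samples, against 21.7 to 36.4 CPM in the hypoxia cultures (6.08 ± 0.17 SE). Adgre1, which encodes the macrophage marker F4/80, had 457, 575 and 559.6 CPM in the tumor samples, against 91.3, 134, 91.6 and 92.9 CPM in the hypoxia cultures (log2 fold change 2.37 ± 0.13 SE, edgeR adjusted p = 7.25e-10), with culture replicate 2 above the other cultures. Siglec1, a sialic acid receptor of tissue macrophages, rose by 6.53 ± 0.16 and Ms4a7 by 7.54 ± 0.17 (SE). Csf1r, the receptor of the macrophage growth factor M-CSF, had 2508, 2879 and 2706 CPM in the tumor samples, against 352, 448, 362 and 405 CPM in the hypoxia cultures (log2 fold change 2.78 ± 0.10 SE, edgeR adjusted p = 6.22e-12). Lyz2, the lysozyme of monocytes, macrophages and neutrophils, had 9810 to 14907 CPM in the tumor samples, against 3358 to 5036 CPM in the hypoxia cultures (1.58 ± 0.15 SE). Lpl, a lipase secreted by macrophages among other cells, went the other way. It had 28.4, 28.3 and 32.8 CPM in the tumor samples, against 1837, 2128, 2232 and 1618 CPM in the hypoxia cultures (log2 fold change -6.03 ± 0.15 SE, edgeR adjusted p = 1.39e-13).

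The monocyte list was mixed. Of its 17 members 9 rose and 3 fell, against 18.1% and 24.1% of all genes tested, and the sums overlapped between the groups. Ly6c2, which encodes the Ly6C of inflammatory monocytes, had 3274, 3198 and 2487 CPM in the tumor samples, against 1479.7, 1288, 1330.5 and 1436 CPM in the hypoxia cultures, with no overlap, but it did not pass the 2-fold test (log2 fold change 1.11 ± 0.10 SE). Ccr2, the receptor that brings monocytes to inflamed tissue, had 1369.7, 1357 and 1495 CPM in the tumor samples, against 499, 631, 483 and 464 CPM in the hypoxia cultures and rose (log2 fold change 1.44 ± 0.11 SE, edgeR adjusted p = 1.28e-08). Plac8 rose by 3.45 ± 0.14, Ms4a6c by 7.17 ± 0.14 and Ly6a, which is also induced by interferon, by 7.32 ± 0.16 (SE). Chil3, which encodes the chitinase-like protein Ym1, had 532 to 653 CPM in the tumor samples, against 2652 to 3193 CPM in the hypoxia cultures and fell (log2 fold change -2.32 ± 0.11 SE, edgeR adjusted p = 7.40e-11).

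**Figure D2:**
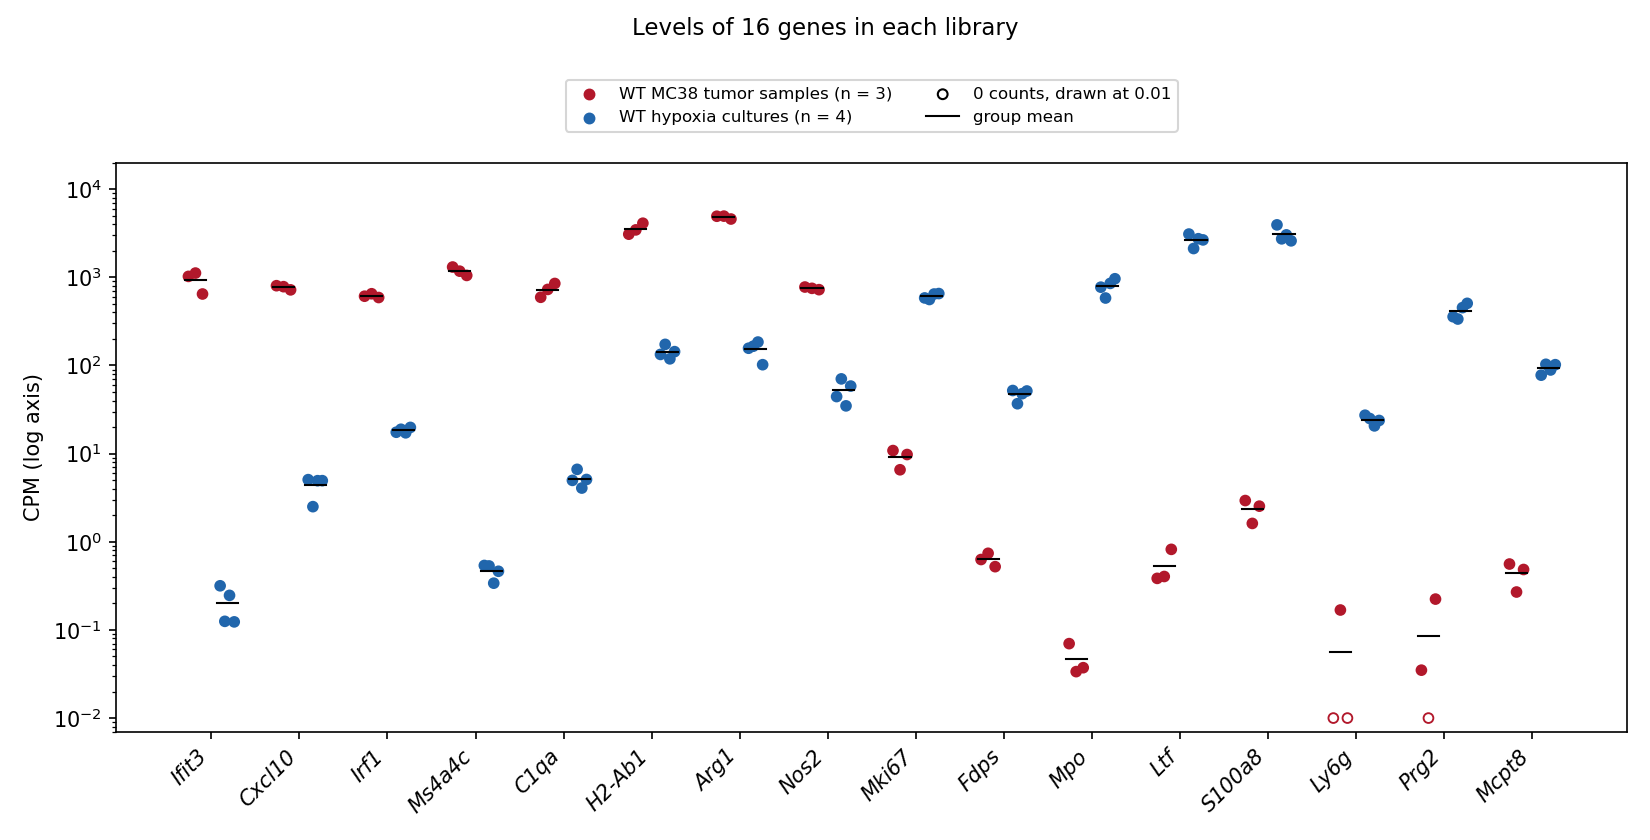
CPM of 16 genes (vertical log axis) in each WT MC38 tumor sample (red, left of each pair, n = 3) and each WT hypoxia culture (blue, right, n = 4), with group means as black bars and libraries at 0 counts drawn open at 0.01. The 16 were picked from the genes described here. The groups do not overlap for any of them, nor for 80.1% of all genes tested. Ifit3, Cxcl10, Irf1, Ms4a4c, C1qa, H2-Ab1, Arg1 and Nos2 stand higher in tumor samples, the other 8 lower.

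Neutrophil granule genes fell furthest. Neutrophils make primary granules as promyelocytes and secondary and tertiary granules later, under control of C/EBPε among other factors. Of 17 tested late granule genes 16 fell and 0 rose, against 24.1% and 18.1% of all genes tested. The median was -7.34 when a gene with no tumor count is set at its bound, and the sum was 639 to 738 CPM in the tumor samples, against 27560 to 37210 CPM in the hypoxia cultures. Promoters of Ngp and Ltf, the gene with most culture counts on the list and its first member, are shown as above, with the C/EBP motif TTGCNNAA (TTNNGCAA on the other strand) in capitals.
Ngp (chr9:110419558-110419857, plus strand): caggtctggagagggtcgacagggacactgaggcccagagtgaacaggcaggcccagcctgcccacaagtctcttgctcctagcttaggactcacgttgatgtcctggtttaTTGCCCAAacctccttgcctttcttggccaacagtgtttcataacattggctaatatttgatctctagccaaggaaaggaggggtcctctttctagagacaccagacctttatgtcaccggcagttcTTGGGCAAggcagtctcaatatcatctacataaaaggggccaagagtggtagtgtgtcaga
Ltf (chr9:111019042-111019341, plus strand): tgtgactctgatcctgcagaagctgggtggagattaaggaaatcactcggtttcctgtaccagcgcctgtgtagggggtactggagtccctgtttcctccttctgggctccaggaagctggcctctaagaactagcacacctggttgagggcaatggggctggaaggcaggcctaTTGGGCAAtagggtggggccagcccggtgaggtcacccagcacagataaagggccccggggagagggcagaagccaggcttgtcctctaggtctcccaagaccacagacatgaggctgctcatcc
The motif starts at position -138 for Ngp, whose window holds 2 matches, and at -75 for Ltf. It was in 8 of 19 windows of this list (42.1%), in 3 of 11 windows of the early granule list (27.3%) and in 10.8% of all windows.

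Ngp, a neutrophil granule protein, had 0 counts in all 3 tumor samples and 310789 to 421894 counts in the 4 cultures. Set at 3 counts per tumor library, it was at least 112620-fold lower in the tumor samples. Ltf, which encodes the iron-binding lactoferrin of secondary granules, had 0.384, 0.404 and 0.82 CPM in the WT tumor samples, against 3097, 2122, 2742 and 2658 CPM in the WT hypoxia cultures (log2 fold change -12.28 ± 0.24 SE, edgeR adjusted p = 2.12e-14). Lcn2, whose product binds bacterial iron carriers, had 3.17 to 3.49 CPM in the tumor samples, against 2228 to 3059 CPM in the hypoxia cultures (log2 fold change -9.58 ± 0.17 SE, edgeR adjusted p = 8.12e-15). S100a8 and S100a9 encode the partner chains of calprotectin, an abundant cytosolic protein of neutrophils and monocytes. S100a8 had 2.94, 1.61 and 2.54 CPM in the tumor samples, against 3937, 2734, 3030.5 and 2595 CPM in the hypoxia cultures (log2 fold change -10.35 ± 0.25 SE, edgeR adjusted p = 1.34e-13), and S100a9 had 0.979, 1.14 and 0.0746 CPM in the tumor samples, against 8634, 6029, 6611 and 5937 CPM in the hypoxia cultures (log2 fold change -13.14 ± 0.42 SE, edgeR adjusted p = 8.16e-11). Both were low in each tumor sample, and the cultures did not overlap with them. Ly6g, the surface marker of mouse neutrophils, had 0, 0.168 and 0 CPM in the tumor samples, against 27.3, 25, 20.6 and 23.8 CPM in the hypoxia cultures, so 2 tumor samples held no count of it. Mmp8 and Mmp9, the collagenase and gelatinase of neutrophil granules, kept a low level in the tumor samples. Mmp8 had 43.5 to 46.8 CPM in the tumor samples, against 923 to 1332 CPM in the hypoxia cultures and Mmp9 had 5.25 to 6.71 CPM in the tumor samples, against 162 to 171 CPM in the hypoxia cultures. Stfa2l1, a stefin, had 0 counts in the tumor samples and was at least 1482-fold lower there.

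Primary granule genes were also lower. Of 12 members of the early list 10 fell and 1 rose, against 24.1% and 18.1% of all genes tested. Mpo, the myeloperoxidase that makes hypochlorous acid, had 0.0699, 0.0336 and 0.0373 CPM in the WT tumor samples, against 774, 583, 853 and 964 CPM in the WT hypoxia cultures (log2 fold change -13.92 ± 0.30 SE, edgeR adjusted p = 4.99e-14). Elane, which encodes neutrophil elastase, had 0.224 to 0.839 CPM in the tumor samples, against 418 to 643 CPM in the hypoxia cultures. Ctsg, which encodes the protease cathepsin G, had 0.202 to 0.245 CPM in the tumor samples, against 172 to 219.8 CPM in the hypoxia cultures. Prtn3, for proteinase 3, rested at 6.61 to 7.97 CPM in the tumor samples, against 287 to 429 CPM in the hypoxia cultures (-5.72 ± 0.16 SE). Ms4a3, expressed in granulocyte and monocyte progenitors, fell by 10.90 on the log2 scale, with 0 to 0.175 CPM in the tumor samples. Cebpe, the gene of C/EBPε, had 4.02, 3.77 and 3.84 CPM in the tumor samples, against 77.2, 54, 75.2 and 77.3 CPM in the hypoxia cultures (log2 fold change -4.19 ± 0.15 SE, edgeR adjusted p = 4.49e-12). The member that rose was Hk3, a hexokinase of myeloid cells, with 923 to 1076 CPM in the tumor samples, against 209 to 229 CPM in the hypoxia cultures, which makes up most of the tumor sum of the list (966 to 1118 CPM in the tumor samples, against 2221 to 3161 CPM in the hypoxia cultures). Csf3r, the receptor of G-CSF, had 229.7, 264 and 247 CPM in the tumor samples, against 165, 242, 129 and 199 CPM in the hypoxia cultures, and the groups overlapped (log2 fold change 0.43 ± 0.16 SE, edgeR adjusted p = 0.0272). Its adjusted p in edgeR was 0.0904 without tumor replicate 2 and 0.0741 without culture replicate 1. Abca13, Klk1b11 and Muc13, further largest falls, had 61.6 to 117 CPM over the 4 cultures and 0 to 0.235 CPM over the tumor samples.

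Some granulocyte genes stand in one table only, since genes with fewer than 2 counts over a table are not listed in it. The tumor table lacks 10565 genes of the hypoxia table, 84 of them at a mean of at least 1 CPM in the WT cultures. The highest protein-coding ones under the naming rule were Epx, Camp, Itgb2l, BC100530, Stfa2 and Ceacam10. Epx, the peroxidase of eosinophils, had 19047, 19323, 27344 and 33767 counts in the cultures. Camp, which encodes the antimicrobial peptide of secondary granules, had 8411, 4176, 7972 and 7592 counts. In the other direction 1551 genes stand in the tumor table only, 16 of them at a mean of at least 1 CPM. Pcdh18 and Rhox5, a protocadherin and a homeobox gene, led the protein-coding ones, with 156 to 215 and 116 to 202 counts in the WT tumor samples. Nptx1, Sertad4, Lrrc17 and Rgma came next. No test was made for genes of one table.

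Genes of eosinophils, mast cells and basophils were mostly near 0 in the tumor samples. Of 10 tested mast cell and basophil genes 9 fell and 0 rose, against 24.1% and 18.1% of all genes tested. The list summed to 14.9 to 27.9 CPM in the tumor samples, against 474 to 728 CPM in the hypoxia cultures. Mcpt8, a protease of basophils, had 0.559, 0.269 and 0.485 CPM in the WT tumor samples, against 77.6, 103, 88.9 and 102 CPM in the WT hypoxia cultures (log2 fold change -7.73 ± 0.19 SE, edgeR adjusted p = 1.74e-13). Cpa3, a carboxypeptidase of mast cells and basophils, had 0.112 to 0.804 CPM in the tumor samples, against 67.5 to 102 CPM in the hypoxia cultures, and Prss34, a further protease, 0 to 0.245 CPM in the tumor samples, against 148 to 239 CPM in the cultures. Kit, the receptor of stem cell factor, had 0.82 to 1.19 CPM in the tumor samples, against 23.4 to 29.4 CPM in the hypoxia cultures (-4.62 ± 0.16 SE). Hdc, the enzyme that makes histamine, kept 12.1 to 22.9 CPM in the tumor samples, against 62 to 99.2 CPM in the hypoxia cultures. Of 7 tested eosinophil genes 5 fell and 1 rose. Prg2, which encodes eosinophil major basic protein, had 0.0349, 0 and 0.224 CPM in the tumor samples, against 358, 336, 453 and 507 CPM in the hypoxia cultures (log2 fold change -12.22 ± 0.34 SE, edgeR adjusted p = 3.04e-12). Ear2, an eosinophil ribonuclease with near-identical relatives, had 1.45 to 2.8 CPM in the tumor samples, against 57.4 to 84 CPM in the hypoxia cultures, and Siglecf 0.774 to 1.49 CPM in the tumor samples, against 13 to 14.2 CPM in the hypoxia cultures. Globin genes were low in both groups and did not pass the test: Hba-a1 had 28.7 to 41.3 CPM in the tumor samples, against 10.9 to 35.7 CPM in the hypoxia cultures, with adjusted p = 0.27 in edgeR, or 0.0365 without culture replicate 4.

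Cell division genes were low in the tumor samples. Of 28 genes of DNA replication and mitosis 27 fell and 0 rose, against 24.1% of all genes tested, with a median of -3.08 and a sum of 407 to 434 CPM in the tumor samples, against 2897 to 3739 CPM in the hypoxia cultures. Mki67, which encodes the proliferation antigen Ki-67, had 10.8, 6.56 and 9.77 CPM in the WT tumor samples, against 584, 560.5, 646 and 655 CPM in the WT hypoxia cultures (log2 fold change -6.08 ± 0.16 SE, edgeR adjusted p = 3.37e-13). Top2a, the topoisomerase that untangles replicated DNA, had 10.4 to 13.2 CPM in the tumor samples, against 315 to 386 CPM in the hypoxia cultures (-4.91 ± 0.12 SE). Ccna2, Ccnb2 and Plk1, 2 cyclins and a mitotic kinase, had log2 fold changes of -5.43 ± 0.14, -4.03 ± 0.13 and -5.17 ± 0.14 (SE). Myb, a transcription factor of blood progenitors, was also near 0 in the tumor samples. It had 0.315, 0.336 and 0.41 CPM in the tumor samples, against 67.2, 61.1, 84.7 and 85.3 CPM in the hypoxia cultures (log2 fold change -7.71 ± 0.21 SE, edgeR adjusted p = 2.95e-13). Transcripts of replication-dependent histones, which lack poly(A) tails and were listed after their values were seen, did not follow: 14 of 45 tested rose and 6 fell.

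Genes of sterol and fatty acid synthesis fell. SREBP factors switch on these genes when cholesterol is short. Of 22 members 19 fell and 0 rose, against 24.1% and 18.1% of all genes tested. They had a median of -2.71 and a sum of 1508 to 1721 CPM in the tumor samples, against 4882 to 5307 CPM in the hypoxia cultures. Fdps, which makes farnesyl diphosphate, had 0.629, 0.74 and 0.522 CPM in the WT tumor samples, against 52, 36.8, 47.9 and 51.4 CPM in the WT hypoxia cultures (log2 fold change -6.20 ± 0.19 SE, edgeR adjusted p = 9.68e-13). Scd1, the desaturase that makes monounsaturated fatty acids, had 2.69 to 3.58 CPM in the tumor samples, against 183 to 206 CPM in the hypoxia cultures (-5.94 ± 0.12 SE). Idi1, Lss and Hmgcs1 had log2 fold changes of -3.45 ± 0.11, -3.32 ± 0.10 and -2.69 ± 0.11 (SE). Genes that export or take up lipid were split, with 5 of 15 higher and 2 lower. Abca1, which passes cholesterol out of the cell, had 202 to 245 CPM in the tumor samples, against 5.55 to 10 CPM in the hypoxia cultures (log2 fold change 4.86 ± 0.16 SE, edgeR adjusted p = 2.22e-12). Cd36 and Msr1, scavenger receptors, rose by 4.11 ± 0.16 and 3.99 ± 0.11 (SE), and Nr1h3, the sterol-sensing receptor LXRα, by 3.44 ± 0.13 (SE). Cpt1a, the gate for fatty acids into mitochondria, had 213, 224 and 211 CPM in the tumor samples, against 145, 170.1, 143 and 152 CPM in the hypoxia cultures and did not pass the 2-fold test (0.50 ± 0.08 SE).

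Arg1 and Nos2 rose while the polyamine list did not move as one. Arg1, the arginase that splits arginine into ornithine and urea (chromosome 10, 24915221 to 24927484), had 4932, 4947 and 4588 CPM in the WT tumor samples, against 157, 165, 184 and 102 CPM in the WT hypoxia cultures (log2 fold change 4.99 ± 0.17 SE, edgeR adjusted p = 4.50e-12). Culture replicate 4 was the lowest, and all 3 tumor samples stood far above the cultures. Nos2, the inducible nitric oxide synthase, which uses the same amino acid, had 776, 750.3 and 724 CPM in the WT tumor samples, against 44.4, 70.5, 34.8 and 58.4 CPM in the WT hypoxia cultures (log2 fold change 3.85 ± 0.19 SE, edgeR adjusted p = 1.70e-09). Arg2, the mitochondrial arginase, had 15.7, 11.5 and 15.8 CPM in the tumor samples, against 15.9, 21.2, 10.6 and 16.1 CPM in the hypoxia cultures; the groups overlapped (log2 fold change -0.16 ± 0.19 SE). Slc7a1, a carrier that brings arginine into the cell, had 8.17 to 11.7 CPM in the tumor samples, against 70 to 97.8 CPM in the hypoxia cultures and fell (log2 fold change -3.13 ± 0.14 SE, edgeR adjusted p = 6.46e-11). Odc1, which makes putrescine from ornithine, had 76.3, 74.7 and 83.7 CPM in the tumor samples, against 118, 85.5, 124 and 106 CPM in the hypoxia cultures and was not called (log2 fold change -0.47 ± 0.11 SE, edgeR adjusted p = 0.00154). Amd1, which supplies the aminopropyl groups of spermidine and spermine, fell (-1.84 ± 0.10 SE). Smox and Sat1, which break polyamines down or mark them for export, rose. Smox had 399, 429 and 390.4 CPM in the tumor samples, against 24, 33.5, 19.3 and 27.8 CPM in the hypoxia cultures (log2 fold change 3.96 ± 0.15 SE, edgeR adjusted p = 8.83e-12), and Sat1 had 483 to 546 CPM in the tumor samples, against 131 to 158 CPM in the hypoxia cultures (1.87 ± 0.09 SE). In all 5 of 21 list members rose and 3 fell, against 18.1% and 24.1% of all genes tested, with a median of 0.46.

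Amino acid supply genes were lower. ATF4 switches on transporters and synthesis enzymes when amino acids run short. Of 24 listed genes 13 fell and 1 rose, against 24.1% and 18.1% of all genes tested, with a median of -1.44. Slc7a5, a carrier of large neutral amino acids, had 24.7, 25.8 and 17.2 CPM in the WT tumor samples, against 284, 263, 301 and 298 CPM in the WT hypoxia cultures (log2 fold change -3.66 ± 0.13 SE, edgeR adjusted p = 6.53e-12). Shmt1 and Shmt2, which pass a carbon from serine to folate, had log2 fold changes of -3.49 ± 0.20 and -2.34 ± 0.09, and Pycr1, of proline synthesis, -3.24 ± 0.18 (SE). Asns, asparagine synthetase, had 7.31 to 13.1 CPM in the tumor samples, against 43.1 to 53.1 CPM in the hypoxia cultures, and Slc7a11, the cystine carrier, 10.1 to 12.6 CPM in the tumor samples, against 35.9 to 45.4 CPM in the hypoxia cultures. Atf4 itself had 161, 157 and 131 CPM in the tumor samples, against 311, 258, 289 and 297 CPM in the hypoxia cultures and did not pass the 2-fold test (-0.95 ± 0.10 SE).

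HIF genes were only partly higher in the tumor samples. Of 28 HIF targets and regulators 11 rose and 2 fell, against 18.1% and 24.1% of all genes tested, with a median of 0.79. Hif1a, which encodes HIF-1α, had 672, 679 and 725 CPM in the WT tumor samples, against 240.1, 272, 233 and 242 CPM in the WT hypoxia cultures (log2 fold change 1.49 ± 0.08 SE, edgeR adjusted p = 4.40e-10). HIF-1α is controlled mostly as a protein, which was not measured. Epas1, which encodes HIF-2α, had 0.384 to 0.707 CPM in the tumor samples, against 4.97 to 6.48 CPM in the hypoxia cultures and fell (-3.46 ± 0.24 SE). Vhl, whose product marks HIF proteins for destruction, rose by 1.76 ± 0.08 (SE). Among targets, Slc2a1, the glucose carrier GLUT1, had 839, 904 and 814 CPM in the tumor samples, against 327, 343, 345 and 329 CPM in the hypoxia cultures (log2 fold change 1.34 ± 0.08 SE, edgeR adjusted p = 7.38e-10). Vegfa, which drives vessel growth, had 319.9, 334 and 357 CPM in the tumor samples, against 213, 276, 186 and 235 CPM in the hypoxia cultures and was not called (log2 fold change 0.57 ± 0.11 SE, edgeR adjusted p = 3.20e-04). Adm, a vessel-widening peptide, was low but rose, with 6.3 to 8.28 CPM in the tumor samples, against 0.0924 to 0.222 CPM in the hypoxia cultures (5.35 ± 0.25 SE), and Higd1a and Ankrd37 rose by 2.27 ± 0.09 and 2.16 ± 0.10 (SE). The widest split within glucose use was between carriers. Slc2a3, the carrier GLUT3, had 13.2, 13.4 and 11.9 CPM in the tumor samples, against 195, 253, 182 and 244 CPM in the hypoxia cultures and fell (log2 fold change -4.09 ± 0.14 SE, edgeR adjusted p = 2.46e-12). Of 22 glycolysis and lactate genes 6 rose and 2 fell, against 18.1% and 24.1% of all genes tested, with a median of 0.24. Pfkl and Pfkp, forms of phosphofructokinase, rose by 1.21 ± 0.08 and 1.65 ± 0.10, and Hk3 by 2.15 ± 0.08 (SE).

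The same tumor libraries were set beside WT normoxia cultures of day 4, whose label differs from hypoxia in both oxygen and time. The normoxia cultures also stand in a count table of their own. Their WT libraries held 23486727 to 23667396 counts, against 31060342 to 31385825 in hypoxia. Oxygen, time and table cannot be told apart between the cultures. The 3 tumor libraries are shared, so the 2 comparisons are not independent. Against normoxia 18.5% of 14666 tested genes rose and 22.8% fell. In that comparison 17 of 28 HIF genes rose and 1 fell, with a median of 1.59, and 11 of 22 glycolysis genes rose and 1 fell, with a median of 1.35. For 23 of 28 HIF genes and 21 of 22 glycolysis genes the log2 fold change against hypoxia was below that against normoxia, as it was for 46.6% of the 14497 genes tested against both. Vegfa had 93.6 to 141 CPM in the normoxia cultures and a log2 fold change of 1.66 ± 0.12 against them, beside 0.57 ± 0.11 against hypoxia (SE). Slc2a1 had 134 to 169 CPM in normoxia, and its values were 2.50 ± 0.10 and 1.34 ± 0.08. Hif1a had 1.31 ± 0.08 against normoxia and 1.49 ± 0.08 against hypoxia. Adm had 7.76 ± 0.39 against normoxia and 5.35 ± 0.25 against hypoxia. Slc2a3 was lower than in either culture, at -3.05 ± 0.14 against normoxia and -4.09 ± 0.14 against hypoxia. Called against normoxia and not against hypoxia were 7 HIF genes, Vegfa among them, and 5 glycolysis genes. Called against hypoxia and not against normoxia were 2 HIF genes and 1 glycolysis gene. The difference between the comparisons was not tested.

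**Figure D3:**
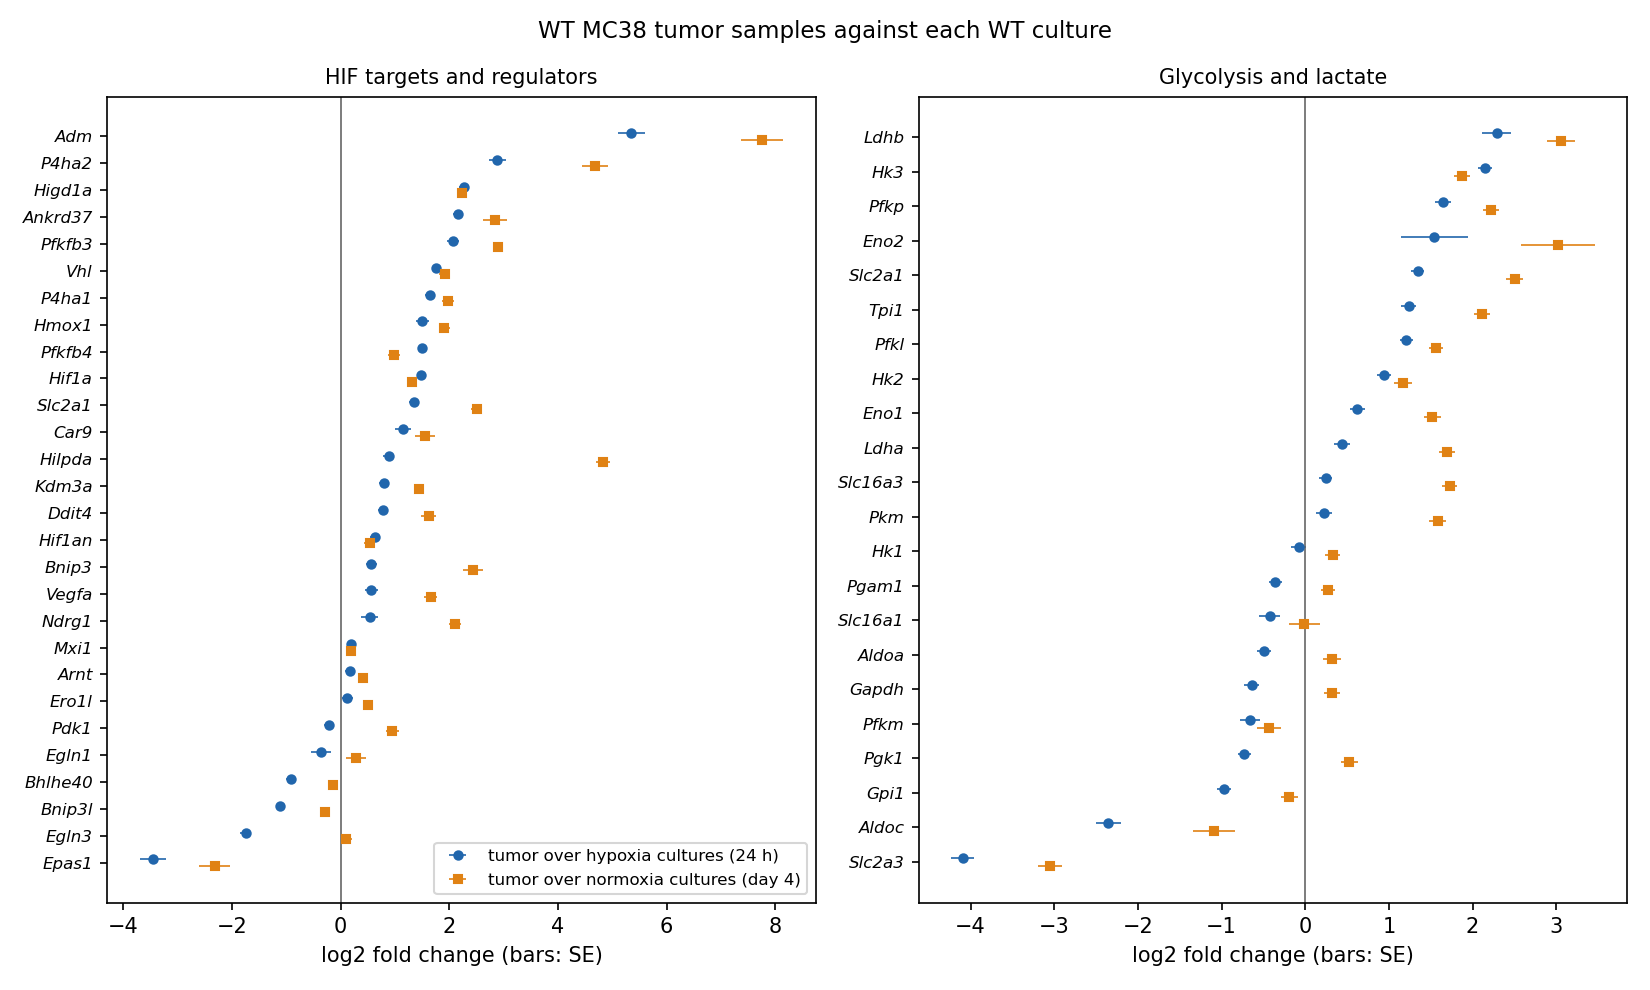
Log2 fold changes (horizontal axis, bars are SE) of the 28 HIF genes (left panel) and 22 glycolysis genes (right panel), for WT MC38 tumor samples over WT hypoxia cultures (blue circles) and over WT normoxia cultures (orange squares). Orange squares lie to the right of blue circles for 23 HIF genes and 21 glycolysis genes, and the 3 tumor libraries are common to both.

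Respiratory chain genes of the mitochondrial genome fell. Of 76 nuclear genes of the chain 14 rose and 1 fell, a share of rises near the 18.1% of all genes tested, with a median of 0.64 and a sum of 7528 to 8073 CPM in the tumor samples, against 4894 to 5969 CPM in the hypoxia cultures. Ndufa1, a small subunit of complex I, had 40.7 to 52.4 CPM in the tumor samples, against 7.87 to 11.8 CPM in the hypoxia cultures (2.18 ± 0.13 SE), and Ndufa2 rose by 2.07 ± 0.09 (SE). Sdhb, the iron-sulfur subunit of complex II, had 174 to 196 CPM in the tumor samples, against 49.4 to 56.4 CPM in the hypoxia cultures (log2 fold change 1.83 ± 0.08 SE, edgeR adjusted p = 6.81e-11), and Cycs, the electron carrier cytochrome c, rose by 1.98 ± 0.13 (SE). All 13 protein genes of the mitochondrial genome fell, against 24.1% of all genes tested. mt-Atp6, which encodes a subunit of ATP synthase, had 228, 122 and 243 CPM in the WT tumor samples, against 11636, 10013, 10550 and 10042 CPM in the WT hypoxia cultures (log2 fold change -5.74 ± 0.24 SE, edgeR adjusted p = 1.11e-10). mt-Nd1 and mt-Nd5, of complex I, had log2 fold changes of -6.02 ± 0.29 and -5.74 ± 0.23 (SE). Genes of cytosolic ribosomal proteins, listed after their values were seen, also fell, 61 of 74. Rps26 had 57.2 to 61 CPM in the tumor samples, against 678 to 760.2 CPM in the hypoxia cultures and Rpl7 172 to 192 CPM in the tumor samples, against 578 to 715 CPM in the hypoxia cultures. The fall was uneven among them (-3.60 ± 0.09 and -1.81 ± 0.09 SE), and many of these genes have processed pseudogenes that could take their reads. In the citric acid cycle 2 of 25 genes rose and 1 fell. Cs, citrate synthase, had 152 to 172 CPM in the tumor samples, against 325 to 352 CPM in the hypoxia cultures and did not pass the 2-fold test (-1.05 ± 0.08 SE).

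Cytokine and chemokine genes moved in both directions. Of 21 tested cytokine genes 8 rose and 6 fell, against 18.1% and 24.1% of all genes tested. Il1b, an inflammatory cytokine of monocytes and macrophages, had 790.1, 759.99 and 1053 CPM in the WT tumor samples, against 259, 275, 239.5 and 284 CPM in the WT hypoxia cultures (log2 fold change 1.72 ± 0.11 SE, edgeR adjusted p = 3.22e-09). Il1a, its relative, had 7.69, 8.28 and 11.7 CPM in the tumor samples, against 11.2, 8.82, 16.5 and 12 CPM in the hypoxia cultures, with overlap (log2 fold change -0.40 ± 0.20 SE, edgeR adjusted p = 0.0772). Its adjusted p in edgeR was 0.0182 without tumor replicate 3 and 0.0124 without culture replicate 2. Il18 had 58.6 to 65.5 CPM in the tumor samples, against 1.48 to 2.75 CPM in the hypoxia cultures (log2 fold change 4.97 ± 0.15 SE, edgeR adjusted p = 9.35e-13), and Tnfsf10, the death ligand TRAIL, 33 to 44.3 CPM in the tumor samples, against 0.348 to 0.594 CPM in the hypoxia cultures (6.43 ± 0.17 SE). Il15, which sustains NK and memory T cells, and Il27, which restrains T cells, rose by 3.14 ± 0.15 and 3.42 ± 0.15 (SE). Il6, the gene of a cytokine that was itself added to the normoxia cultures, had 2.87, 1.68 and 2.31 CPM in the tumor samples, against 31.3, 39.1, 31.9 and 40.6 CPM in the hypoxia cultures and fell (log2 fold change -3.97 ± 0.17 SE, edgeR adjusted p = 3.67e-11). Of 21 chemokine genes 11 rose and 6 fell. Ccl2, a main ligand of the monocyte receptor CCR2, had 812, 767 and 628 CPM in the tumor samples, against 12.4, 7.7, 13.3 and 7.46 CPM in the hypoxia cultures (log2 fold change 6.17 ± 0.20 SE, edgeR adjusted p = 1.69e-11). Ccl7 and Ccl12, which can bind the same receptor in mice, rose by 8.15 ± 0.22 and 9.43 ± 0.15, and Ccl8 by 8.94 ± 0.18 (SE). Ccl3, an inflammatory chemokine, had 57.8 to 70.3 CPM in the tumor samples, against 307 to 316 CPM in the hypoxia cultures and fell (-2.26 ± 0.09 SE).

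Among 24 immune-suppressive effector genes 10 rose and 3 fell, against 18.1% and 24.1% of all genes tested. Cd274, which encodes PD-L1 and is itself induced by interferon, had 369, 385 and 347 CPM in the WT tumor samples, against 66, 90.8, 64.1 and 72.9 CPM in the WT hypoxia cultures (log2 fold change 2.32 ± 0.11 SE, edgeR adjusted p = 1.06e-10). Pdcd1lg2, the gene of PD-L2, had 19.4, 21.3 and 6.86 CPM in the tumor samples, against 6.59, 7.95, 5.58 and 7.46 CPM in the hypoxia cultures, with tumor replicates far apart (log2 fold change 1.20 ± 0.31 SE), and was not called. Havcr2, which encodes the receptor TIM-3, had 189 to 217 CPM in the tumor samples, against 6.13 to 10 CPM in the hypoxia cultures (4.80 ± 0.15 SE), and Lgals9, which encodes a galectin that binds it, 544 to 672 CPM in the tumor samples, against 134 to 151 CPM in the hypoxia cultures (2.11 ± 0.09 SE). Acod1, which makes the metabolite itaconate, had 459, 508 and 534 CPM in the tumor samples, against 48.9, 53.5, 51 and 61.1 CPM in the hypoxia cultures (log2 fold change 3.22 ± 0.10 SE, edgeR adjusted p = 7.86e-13). Entpd1, the ectoenzyme CD39 that starts the breakdown of ATP to adenosine, rose by 2.86 ± 0.10, and Tgfbi, a matrix protein induced by TGF-β, by 2.68 ± 0.12 (SE).

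Of 20 genes of IL-6 signalling and STAT3 feedback 6 rose and 4 fell, against 18.1% and 24.1% of all genes tested. Stat3, the factor that carries the IL-6 signal, had 664, 694 and 591 CPM in the tumor samples, against 252, 288, 238 and 269.6 CPM in the hypoxia cultures (log2 fold change 1.31 ± 0.09 SE, edgeR adjusted p = 5.43e-09). Socs3, which shuts off IL-6 signalling and is a target of STAT3, had 648, 675 and 690.4 CPM in the WT tumor samples, against 85.1, 94.8, 109 and 94.7 CPM in the WT hypoxia cultures (log2 fold change 2.81 ± 0.09 SE, edgeR adjusted p = 1.95e-12). Socs1, an inhibitor of interferon signalling, had 136 to 172 CPM in the tumor samples, against 4.85 to 5.64 CPM in the hypoxia cultures (4.91 ± 0.11 SE). Cish, which follows STAT5 and GM-CSF, had 26, 26.4 and 19.9 CPM in the tumor samples, against 133, 131, 128 and 138 CPM in the hypoxia cultures and fell (log2 fold change -2.46 ± 0.10 SE, edgeR adjusted p = 2.89e-11). Of 17 NF-kappaB feedback genes 7 rose and 0 fell. Icam1, an adhesion molecule induced by NF-kappaB, had 313 to 359 CPM in the tumor samples, against 32.3 to 38.5 CPM in the hypoxia cultures (3.29 ± 0.09 SE), and Nfkb2 and Relb, subunits of the noncanonical pathway, rose by 1.98 ± 0.09 and 2.56 ± 0.14 (SE).

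Immediate early genes answer within minutes to many stimuli. Of 25 members 11 rose and 6 fell, against 18.1% and 24.1% of all genes tested, so the share that fell was near that of all genes. Fos had 3937, 4122 and 4580.3 CPM in the tumor samples, against 258, 300.4, 275 and 282 CPM in the hypoxia cultures (log2 fold change 3.92 ± 0.10 SE, edgeR adjusted p = 1.44e-13). Dusp1 and Atf3, a phosphatase and a stress factor, rose by 3.03 ± 0.10 and 3.25 ± 0.09 (SE). Egr3 and Fosb went the other way. Egr3 had 0.135 to 0.336 CPM in the tumor samples, against 94.4 to 129 CPM in the hypoxia cultures (-8.86 ± 0.21 SE), and Fosb had 54.1 to 61.9 CPM in the tumor samples, against 212 to 384 CPM in the hypoxia cultures (-2.31 ± 0.17 SE).

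Lineage transcription factors moved in both directions, with 6 of 20 higher and 8 lower, against 18.1% and 24.1% of all genes tested. Spi1, the master factor PU.1 of myeloid cells, had 554, 621 and 584 CPM in the tumor samples, against 451, 431, 428 and 456 CPM in the hypoxia cultures and was not called (0.41 ± 0.08 SE). Irf5, of inflammatory macrophages, rose by 2.30 ± 0.08 (SE). Cebpa, of granulocyte and monocyte progenitors, and Nfe2 fell (-1.30 ± 0.08 and -2.71 ± 0.10 SE). Among 25 cathepsin and lysosome genes 10 rose and 3 fell, against the same 18.1% and 24.1%. Ctss, which trims the invariant chain for class II loading, had 5664, 6038 and 5791 CPM in the WT tumor samples, against 437, 566, 400.1 and 335 CPM in the WT hypoxia cultures (log2 fold change 3.75 ± 0.15 SE, edgeR adjusted p = 1.31e-11), and Ctsc, Ctsb and Ctsh rose by 2.17 ± 0.10, 1.94 ± 0.10 and 2.85 ± 0.11 (SE). Matrix proteases and their inhibitors were split evenly, with 6 of 18 higher and 6 lower, against 18.1% and 24.1% of all genes tested. Mmp14, a membrane-bound protease, and Mmp13, a collagenase, rose (3.69 ± 0.14 and 3.80 ± 0.10 SE), whereas Mmp12, the macrophage elastase, had 82.8 to 94.7 CPM in the tumor samples, against 403 to 493 CPM in the hypoxia cultures and fell (-2.41 ± 0.10 SE). Cybb, the catalytic subunit of the phagocyte NADPH oxidase, had 1084 to 1167 CPM in the tumor samples, against 1539.5 to 1676 CPM in the hypoxia cultures and did not pass the 2-fold test (-0.53 ± 0.08 SE). Of 7 oxidase genes Ncf4 rose (1.35 ± 0.08 SE) and Rac2, a GTPase of neutrophils and other blood cells, fell (-1.74 ± 0.08 SE). Without tumor replicate 2, 2 oxidase genes rose.

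**Figure D4:**
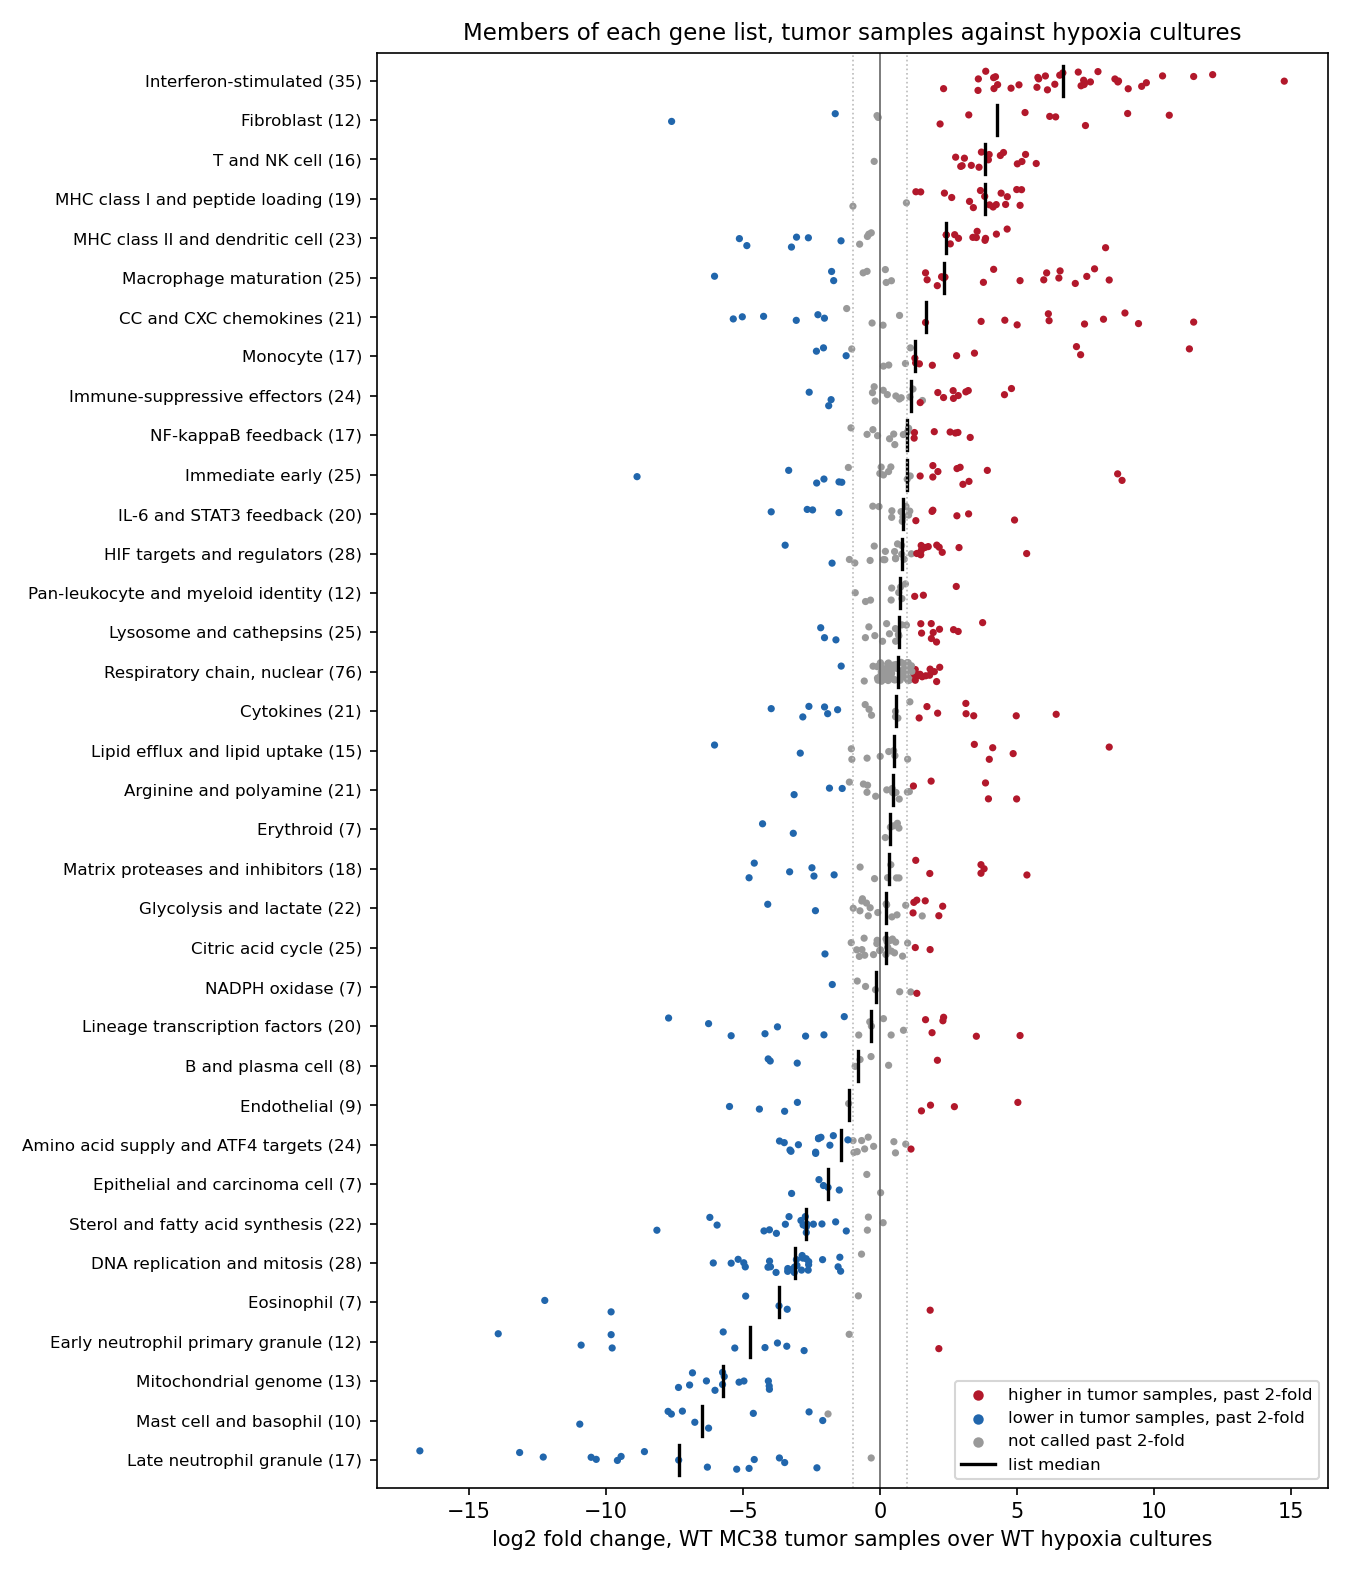
Log2 fold change of each tested member of 36 gene lists (horizontal axis), WT MC38 tumor samples over WT hypoxia cultures. The number of tested members is in brackets, black ticks are list medians, and red and blue points were called past 2-fold. Genes with no count in a whole group, tumor or culture, are drawn at their bound. Interferon-stimulated genes lie furthest right (median 6.67) and late neutrophil granule genes furthest left (median -7.34).

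The comparison was repeated in the KO mice, with 3 tumor samples and 4 hypoxia cultures from the same tables, where source, time and table differ in the same way. The KO columns of the culture table carry a code and were read as KO because the others are named WT. In the KO libraries 20.2% of 15829 tested genes rose and 24.9% fell. Of 2743 genes that rose in WT and were tested in both, 2479 also rose in KO (90.38% of the WT genes and 83.58% of the 2966 KO genes). Of 3661 that fell in WT, 3348 also fell in KO (91.45% of the WT genes and 87.78% of the 3814 KO genes), and 7 genes were called in opposite directions. Interferon-stimulated genes rose in 35 of 35 cases in KO, late granule genes fell in 17 of 17 and division genes in 27 of 28. Arg1 had 3273 ± 276 CPM in KO tumor samples, against 48.5 ± 22.6 CPM in KO hypoxia cultures (SD, log2 fold change 6.08 ± 0.38 SE). Nuclear respiratory chain genes rose in 33 of 76 cases in KO, against 14 in WT. Their median log2 fold change was 0.88 in KO and 0.64 in WT, both below the threshold of 1. In the interaction test given next, 15 of the 76 had an adjusted p under 0.05, against 10.2% of all genes.

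The contrast differed between the genotypes for 1698 of 16577 genes (10.2%) in a test of the interaction over all 14 libraries. Ctse, which encodes the protease cathepsin E, had 18.3 ± 1.46 CPM in KO tumor samples, against 37.2 ± 4.48 CPM in KO hypoxia cultures (SD), and in WT it had 139 to 153 CPM in the tumor samples, against 19.6 to 24.5 CPM in the hypoxia cultures. It rose in WT (2.68 ± 0.09 SE) and had a log2 fold change of -1.02 ± 0.11 in KO, with an interaction of -3.69 ± 0.14 SE, edgeR adjusted p = 1.93e-12. For Cd40 the contrast was larger in KO (10.30 ± 0.14 SE) than in WT (8.23 ± 0.14 SE), with an interaction of 2.09 ± 0.31 SE, edgeR adjusted p = 2.24e-04. Slc2a3 fell further in KO (-6.33 ± 0.12 SE), with an interaction of -2.22 ± 0.17 SE, edgeR adjusted p = 8.45e-08. Il1a had 1.42 ± 0.22 in KO and -0.40 ± 0.20 in WT (SE), with an interaction of 1.83 ± 0.35 SE, edgeR adjusted p = 0.00268. Ltf fell further in KO, to -14.70 ± 0.30 (SE), with an interaction of -2.41 ± 0.59 SE, edgeR adjusted p = 0.0156. The contrast of Trac was smaller in KO (2.63 ± 0.31 SE), with an interaction of -3.05 ± 0.59 SE, edgeR adjusted p = 0.00231.

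**Figure D5:**
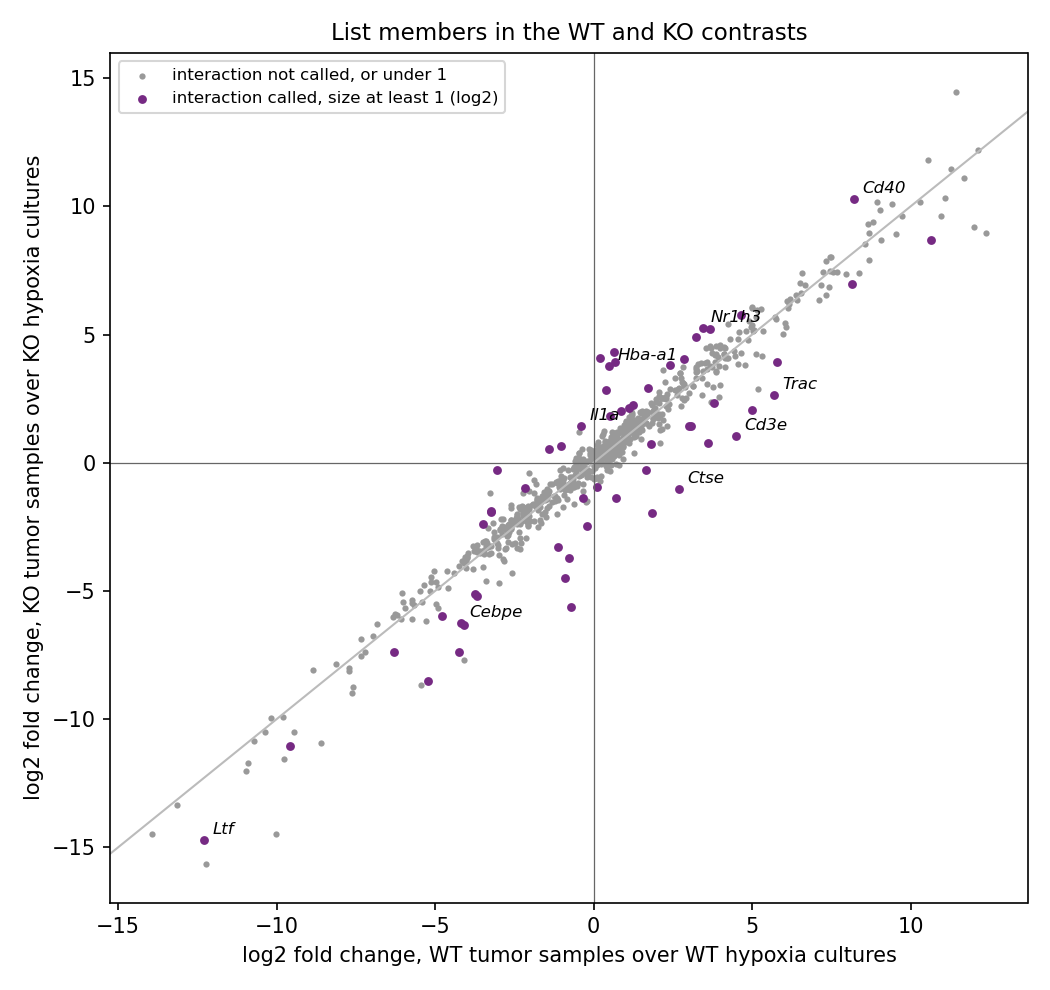
Log2 fold change of list members and other named genes in KO (MC38 tumor samples over hypoxia cultures, vertical axis) against that in WT (horizontal axis), with the line of equality; purple points have an interaction at edgeR adjusted p under 0.05 and a size of at least 1. Ctse and Trac lie below the line, and Cd40, Nr1h3 and Il1a above it.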

How the data were processed

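Per the labels' protocols, total RNA went into libraries of a Takara SMART-Seq kit. The authors deposited raw counts per Ensembl gene, 1 table an experiment. The submitters' processing notes name Subread, featureCounts and GRCm38.p6 without versions. The deposited tables of normalized signal, made with DESeq2 per the same notes, were not used. Each listed gene has at least 2 counts over its table. Whether counting used strand is not given in the sources used here, so a gene and its antisense partner cannot be told apart. Symbols and positions came from GENCODE M21, which held 22659 of the 22700 shared genes.

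The 3 WT tumor and 4 WT hypoxia libraries were fitted together in R 4.3.3 with edgeR 4.0.16 (filterByExpr, TMM scaling, robust quasi-likelihood test, Benjamini-Hochberg adjustment over 15518 genes, threshold 0.05). Called means that glmTreat passed at a log2 fold threshold of 1. The SE is the log2 fold change over the square root of F. Genes at 0 in a whole group are given as bounds at 3 counts per library, and genes with 1 to 3 counts as ratios with 95% intervals, which cover counting error only. KO libraries, WT normoxia cultures and the interaction were fitted in the same way. The fit was tested on simulated data. Nothing says that tumor or hypoxia replicates came from separate animals, so p-values measure the spread between these samples only. Libraries of a group differed beyond counting error (chi-square over its degrees of freedom, 10.7 or more in WT groups and 4.91 or more in KO groups), so none was a copy.

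Members and gene lists were chosen with earlier results of these data known. Genes were named by rule: the 12 largest rises and 12 largest falls past 2-fold at a mean log2 CPM of 5 or more, no overlap and a protein-coding symbol; up to 5 members with the smallest p and the first 2 of each list; 20 fixed genes; and the 6 highest protein-coding genes of each single table. Alternatives covered scaling, filters, DESeq2 1.42.0, fold thresholds, single libraries left out, a replicate block and genes listed in either table. Some genes that this rule names are not reported here.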

Additional observations from a re-analysis of the deposited data

Results flagged for a closer look

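Of the 183 named genes checked, 8 (4.37%) had a WT hypoxia culture that stood apart from the other 3 of its group. Chance alone gives about 1 in 20, so the number by itself is no more than that. The flags were not spread evenly, since culture replicate 2 was the one for 5 of them. That culture also had the lowest late granule and division sums of its group (27558 and 2897 CPM). Its macrophage and MHC class II sums were the highest (3783.6 and 1759.3 CPM). It had 134 CPM of Adgre1, where the others had 91.3 to 92.9, and 10 CPM of Havcr2, where the others had 6.13 to 6.42. It had 0.188 CPM of Cxcl9 (others 0 to 0.0308), 2.5 CPM of Cxcl10 (others 4.93 to 5.07) and 54 CPM of Cebpe (others 75.2 to 77.3). Replicate 3 had 284 CPM of Cdh1 (others 244 to 248). Replicate 4 had 29.4 CPM of Kit (others 23.4 to 24.3) and 0.123 CPM of Ifi208, which had no count in the others. The tumor group, with 3 samples, was too small for this check.

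For 20 of the 183 named genes the difference between tumor samples and hypoxia cultures was not the same in the genotypes. The rule was edgeR's interaction test at an adjusted p under 0.05 and a size of at least 1. Of all 16577 genes 10.2% passed this p at any size. The share of all genes at a size of at least 1 was not counted, so whether 20 is more than the background is not known. Values are the log2 fold change in KO minus that in WT. Contrasts that were larger in KO, or less negative, were those of Hba-a1 (3.29), Cd40 (2.09), Nr1h3 (1.84), Il1a (1.83), Mmp14 (1.55), Cdh1 (1.35), Il1b (1.23), H2-Ab1 (1.13) and Shmt1 (1.11). Contrasts that were smaller in KO, or more negative, were those of Ctse (-3.69), Trac (-3.05), Ltf (-2.41), Slc2a3 (-2.22), Cebpe (-2.05), C4b (-1.94), Siglecf (-1.51), Mmp13 (-1.46), Lcn2 (-1.46), Mmp9 (-1.18) and Ccl7 (-1.17). Each adjusted p lay between 1.93e-12 and 0.044. Il1a, at 1.42 in KO and -0.40 in WT, and Ctse, at -1.02 in KO and 2.68 in WT, had opposite signs in the genotypes.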

How the results depend on the processing

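Genes that differed numbered 12665 by the quasi-likelihood test and 6548 past 2-fold. They numbered 7798 and 3302 where a mean log2 CPM of at least 3 was asked of a gene, with 9192 genes tested, and 3270 genes passed at a threshold of 4-fold. With each library left out in turn the counts were 12107 to 12616 and 6265 to 6635. DESeq2 gave 12548 and 5693, genes listed in either table gave 6770 past 2-fold, and a threshold of 1.5-fold gave 9088. Leaving out mitochondrial-genome and ribosomal-protein genes, an alternative chosen after seeing the data, gave 12566 and 6455. Scaling by library size alone put the median of all genes at -0.105 (log2). Tumor and culture samples of the same replicate number did not deviate together (correlation 0.0223, -0.0297 and -0.0498). So few values cannot exclude a weak effect of a shared animal or day. A replicate block over 6 libraries gave 11855 and 6167.

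Under the stricter mean, T and NK cell genes had 1 higher (1 tested), fibroblast genes 4 higher, endothelial genes 2 higher, epithelial genes 2 lower, and B cell and erythroid genes 0 lower each, since fewer genes were tested. In the KO libraries respiratory chain genes had 33 higher, amino acid genes 8 lower, B cell genes 5 lower and epithelial genes 3 lower; the cause was not tested. The NADPH oxidase list had 1 to 2 higher with single libraries left out, 2 of them without tumor replicate 2, and the other lists' counts stayed within 1.5 times with single libraries left out. Each list was counted in 1 direction only. Of 183 named genes 5 changed sign. In the KO libraries these were Arg2 (0.55), Ctse (-1.02), Il1a (1.42), Odc1 (0.18) and Epcam (-0.62); the cause was not tested. Arg2, not called, also stood at 0.0040 without culture replicate 2, and Epcam, at 0.025, was below 0 in 8 of 13 alternatives. Csf3r, Odc1, Pdcd1lg2 and Vegfa lost an edgeR adjusted p under 0.05 in some alternative, with 0.0714 to 0.751, 0.11, 0.0527 and 0.261. Genes below a few CPM in both groups rest on few counts, and 3 counts are 0.0924 to 0.112 CPM here.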
